A study of Mus musculus with 16 samples.

Results

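The contractile genes of skeletal muscle are described here through 40 genes chosen by name, out of 26357 in the deposited count table. They were found by their symbols, and the rule itself uses no measured value. The genes were, however, chosen with earlier results of these data known. The 40 genes comprise 10 genes of the thick filament, 11 of the thin filament, 7 of the Z-disc and the giant or linking proteins, 6 of calcium handling, 4 of energy supply and 2 myogenic transcription factors. All 40 were found in the table and all 40 passed the filter on low counts. Gene IDs are those of the table and positions those of RefSeq on GRCm38.p6. From these, Myh1, Myh2, Myh4 and Tnnt3 stood for fast fibres, and Myh7, Tnnt1 and Myl2 for slow fibres.

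The series, titled for IL-23-driven psoriasiform dermatitis in mice, holds total RNA libraries of animals given IL-23 or vehicle. IL-23 is a cytokine that maintains the T cells producing type 17 cytokines. The 4 groups, with n = 4 libraries each, were IL-23 with an oral drug vehicle (labelled IL-23 Vehicle PO), vehicle with an oral drug vehicle (Vehicle PO), IL-23 with an intraperitoneal drug vehicle (IL-23 Vehicle IP) and vehicle with an intraperitoneal drug vehicle (Vehicle IP). All 16 libraries came from mice dosed with 0 mpk of compound, so no group received a drug. The strain, sex and age of the mice, the tissue, the site and schedule of the IL-23 doses and the day of harvest are not stated in the labels. A group is therefore known only by its agent and its route, and whether each library is a single animal is not stated. The p-values therefore weigh differences between groups against the spread between these libraries. They extend to mice only if each library is a separate animal.

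A sarcomere shortens when myosin heads of the thick filament pull on actin of the thin filament. Calcium released from the sarcoplasmic reticulum binds troponin C, and troponin I and troponin T then move tropomyosin off the myosin-binding sites of actin. Fibres come in fast and slow types that use different genes for the same parts: the myosin heavy chain gene Myh7, slow troponins and the ventricular-type light chains in slow oxidative fibres, and the myosin heavy chain genes Myh2, Myh1 and Myh4, in order of rising speed, with fast troponins in fast fibres. Skin in rodents lies on a thin sheet of striated muscle, and facial and ear muscles attach to it.

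The libraries held 6381990 to 10078531 counts in the 8 IL-23 libraries and 7159325 to 14432930 counts in the 8 vehicle libraries. Levels are given as CPM, counts scaled to a common library total with TMM factors that allow for composition. In a principal component analysis the agents lay apart on component 1, which carried 71.2% of variance. On component 2 (7.41%), intraperitoneal IL-23 library 28 stood at 62.5 and the other 15 libraries between -20.9 and 14.1. Leaving it out changed no call among the 40 genes in the intraperitoneal comparison. In the oral comparison, which shares the estimate of spread, Atp2a2 then passed. Values of single libraries are listed by library number: 14, 24, 26 and 68 for oral IL-23, 4, 27, 33 and 51 for oral vehicle, 25, 28, 31 and 61 for intraperitoneal IL-23, and 49, 50, 59 and 67 for intraperitoneal vehicle.

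Transcripts of striated muscle were present in every library. Levels are compared between genes per kilobase of exon in this paragraph. In oral vehicle libraries the highest mean level among the 40 genes belonged to Acta1, skeletal muscle actin, with 687 ± 175 CPM per kilobase (SD, n = 4). Tnnc2, fast troponin C, had 545 ± 84.6 CPM per kilobase, and Mylpf, the fast regulatory light chain, 541 ± 83.2 CPM per kilobase. Myoglobin, encoded by Mb, stood at 506 ± 48.8 CPM per kilobase. These 4 levels lay within their SDs of their neighbours in that order. The order of genes classed here as fast and slow differed between gene pairs. Among the myosin heavy chains of oral vehicle libraries, Myh1 had 199 ± 52.9 CPM per kilobase, Myh4 62.8 ± 16.9, Myh2 31.5 ± 3.67 and Myh7 2.50 ± 0.566. In contrast, Mybpc1, classed as slow by its name, had 73.3 ± 10.5 CPM per kilobase and its fast counterpart Mybpc2 3.76 ± 1.52. The fibre types that express Mybpc1 here were not tested. Myog and Myh7 had the lowest mean levels of the 40 genes per kilobase in these oral vehicle libraries. Of 8 genes that mark heart muscle, Nkx2-5, a transcription factor of heart muscle, had 0 counts in all 16 libraries. Myh6, the atrial myosin heavy chain, had 2 counts over the oral IL-23 libraries and 44 over the oral vehicle libraries, and 7 and 36 counts over the intraperitoneal IL-23 and vehicle libraries. Nppb of the same 8 genes was higher with IL-23, at means of 19.99 CPM in oral IL-23 and 0.91 CPM in oral vehicle libraries. Its intraperitoneal means were 7.15 CPM with IL-23 and 0.145 CPM with vehicle, and these Nppb levels are not per kilobase. Desmin and tropomyosin genes are also used by smooth muscle, and Atp2a2, Tpm1, Tpm2 and Tpm3 are active in many cell types outside muscle.

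IL-23 against vehicle was compared within each route. Contractile genes were lower in IL-23 libraries in both routes. In oral mice 36 of the 40 genes fell, 1 rose and 3 did not pass an adjusted p of 0.05. Of the 14671 genes tested 63.3% passed in that comparison, 34.0% lower and 29.2% higher. In intraperitoneal mice 35 fell, 2 rose and 3 did not pass, where 61.7% of all genes tested passed, 30.9% lower and 30.8% higher. The same 35 genes fell in both routes. At a change of at least 2-fold, 32 of the 40 genes fell in oral mice and 20 in intraperitoneal mice, against 13.1% and 11.6% of all genes tested. With plain library size the intraperitoneal count was 32, against 16.4% of all genes under that scaling. The median log2 fold change of the 40 genes was -1.39 in oral and -1.02 in intraperitoneal mice, where the medians of all genes were -0.06 and -0.02. Each p comes from edgeR's quasi-likelihood F test, with Benjamini-Hochberg adjustment across the 14671 genes tested.

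The summed level of the 40 genes was 4095, 5928, 4943 and 7017 CPM in oral IL-23 libraries, against 12203, 15471, 12861 and 9881 CPM in oral vehicle libraries. It was 4916, 4613, 5080.1 and 4924 CPM in intraperitoneal IL-23 libraries, against 10255, 8349, 7844 and 8304 CPM in intraperitoneal vehicle libraries. Every IL-23 library lay below every vehicle library of its route. By single genes, the groups did not overlap for 34 lower genes and 1 higher gene in oral mice, against 31.8% of all genes tested that were lower and 27.9% that were higher without overlap. The corresponding figures in intraperitoneal mice were 33 lower and 2 higher genes, against 25.9% and 25.1% of all genes. These are bulk libraries, so fewer muscle cells and less muscle RNA per cell cannot be told apart.

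Markers of other cell types differed between the same libraries. Beside the counts given here, 34.0% of all genes tested fell and 29.2% rose in oral mice, and 30.9% fell and 30.8% rose in intraperitoneal mice. The 9 keratinocyte genes, all tested, summed to 54135 to 61113 CPM in oral IL-23 and 26079 to 35059 CPM in oral vehicle libraries, and to 42892 to 77819.7 CPM in intraperitoneal IL-23 and 29493 to 33128 CPM in intraperitoneal vehicle libraries. Of these, 6 rose and 1 fell in oral mice, and 7 rose and 1 fell in intraperitoneal mice. The 9 leukocyte genes summed to 19966 to 30509 CPM in oral IL-23 and 99.3 to 164 CPM in oral vehicle libraries, and 7 of them rose in oral and 8 in intraperitoneal mice. Their sum in intraperitoneal mice was 21485 to 24976 CPM with IL-23 and 109 to 159 CPM with vehicle. Those sums were mostly S100a8 and S100a9, which neutrophils and inflamed keratinocytes make. Ptprc, the CD45 gene common to leukocytes, averaged 39.9 ± 9.24 CPM in oral IL-23 and 18.1 ± 4.46 CPM in oral vehicle libraries (SD, n = 4 each), and 67.3 ± 71.3 and 24.3 ± 1.95 CPM in intraperitoneal IL-23 and vehicle libraries. Genes of several other cell types were lower with IL-23. Of 9 adipocyte genes 8 fell in each route, with medians of -2.15 and -1.76. The adipocyte genes summed to 229.7 to 331 CPM in oral IL-23 and 785 to 909 CPM in oral vehicle libraries, and to 239 to 348 and 613 to 755 CPM in intraperitoneal IL-23 and vehicle libraries. All 7 Schwann cell genes fell in each route, with medians of -1.66 and -1.55. The Schwann cell genes summed to 264 to 323 CPM in oral IL-23 and 742 to 996 CPM in oral vehicle libraries, and to 281 to 355 and 699 to 914 CPM in intraperitoneal IL-23 and vehicle libraries. Of 7 tested cartilage genes 5 fell in oral and 6 in intraperitoneal mice, with medians of -1.02 and -1.499. The cartilage genes summed to 219.7 to 407 CPM in oral IL-23 and 558 to 682 CPM in oral vehicle libraries, and to 214 to 289 and 587 to 801 CPM in intraperitoneal IL-23 and vehicle libraries. Of 10 tested smooth muscle genes 8 and 7 fell, with medians of -0.69 and -0.52. The smooth muscle genes summed to 177 to 200.1 CPM in oral IL-23 and 271 to 357 CPM in oral vehicle libraries, and to 169 to 197 and 255 to 272 CPM in intraperitoneal IL-23 and vehicle libraries. Of 7 fibroblast genes 3 fell and 1 rose in oral mice and 1 rose in intraperitoneal mice. Of 6 endothelial genes 4 fell in oral mice and none passed in intraperitoneal mice. The share of all genes that passed in either direction was 63.3% in oral and 61.7% in intraperitoneal mice. The fibroblast genes summed to 1170.0 to 1650.5 CPM in oral IL-23 and 1859.5 to 3619.8 CPM in oral vehicle libraries, and to 1292 to 5361 and 1843 to 3037 CPM in intraperitoneal IL-23 and vehicle libraries. The highest of these, 5361 CPM, was IL-23 library 28, and the other 3 intraperitoneal IL-23 libraries held 1292, 1767 and 1986 CPM. The endothelial genes summed to 67.5 to 103 CPM in oral IL-23 and 96.9 to 205 CPM in oral vehicle libraries, and to 92.3 to 151 and 122 to 137 CPM in intraperitoneal IL-23 and vehicle libraries. The medians of adipocyte and Schwann cell genes were further below 0 than that of the contractile genes in both routes, and so was that of cartilage genes in intraperitoneal mice. The part that a changed share of other cell types has in the fall of the muscle genes was not tested. Whether skeletal muscle also expresses genes of these lists, such as Car3 of the adipocyte and Synpo2 of the smooth muscle list, was not tested either.

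**Figure D1:**
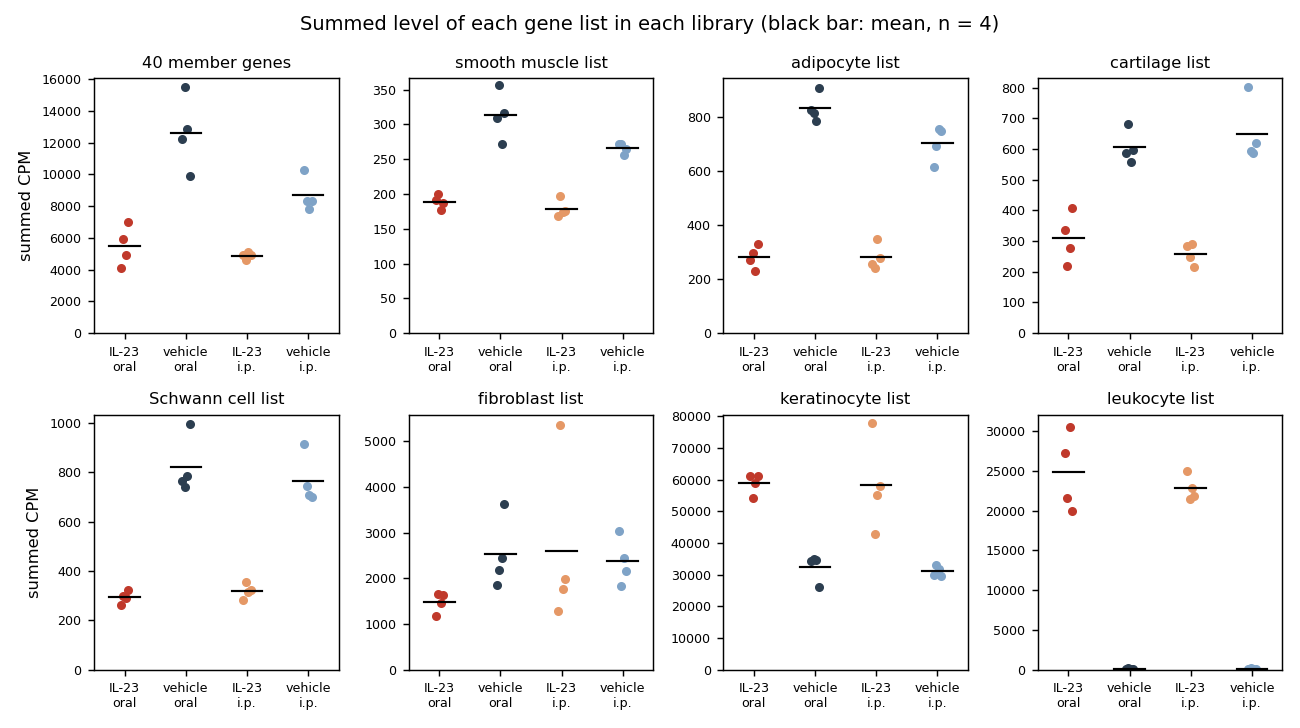
Summed CPM (vertical axes, linear, from 0) of the 40 contractile genes and of 7 marker lists of other cell types, with 1 point per library, 4 libraries per group and a black bar at each mean; i.p. is intraperitoneal. The contractile, adipocyte, cartilage, Schwann cell and smooth muscle sums lie lower in IL-23 libraries and the keratinocyte and leukocyte sums higher.

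The start regions of a fast and a slow myosin gene and of the muscle creatine kinase gene, which fell with IL-23, are printed beside those of Tpm3, which rose. They are the 250 bases before the start in RefSeq, build GRCm38.p6, 5′ to 3′ on the gene's strand, with matches of 4 motifs in capitals. The motifs, searched on both strands, were the E-box CANNTG, which myogenic factors of the MyoD family bind, the MCAT motif CATTCC, bound by TEAD factors, and the MEF2 and CArG motifs.
Myh4 promoter, chr11:67237562-67237811, + strand: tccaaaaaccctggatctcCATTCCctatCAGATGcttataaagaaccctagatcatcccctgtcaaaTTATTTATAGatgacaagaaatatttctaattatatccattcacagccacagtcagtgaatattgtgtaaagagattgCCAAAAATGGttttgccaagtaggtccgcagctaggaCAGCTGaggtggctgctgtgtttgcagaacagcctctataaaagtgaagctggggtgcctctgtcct
Myh7 promoter at its outer start, chr14:54994627-54994876, - strand: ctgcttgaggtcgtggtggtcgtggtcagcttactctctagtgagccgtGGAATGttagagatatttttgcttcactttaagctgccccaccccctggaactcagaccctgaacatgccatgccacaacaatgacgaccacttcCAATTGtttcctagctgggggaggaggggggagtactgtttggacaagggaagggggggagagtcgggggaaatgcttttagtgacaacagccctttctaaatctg
Ckm promoter, chr7:19410844-19411093, + strand: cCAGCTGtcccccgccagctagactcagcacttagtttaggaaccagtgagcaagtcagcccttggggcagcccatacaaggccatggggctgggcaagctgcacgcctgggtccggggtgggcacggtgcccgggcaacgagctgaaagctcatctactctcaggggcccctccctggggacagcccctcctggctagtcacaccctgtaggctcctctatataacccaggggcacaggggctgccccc
Tpm3 promoter at its first listed start, chr3:90072401-90072650, + strand: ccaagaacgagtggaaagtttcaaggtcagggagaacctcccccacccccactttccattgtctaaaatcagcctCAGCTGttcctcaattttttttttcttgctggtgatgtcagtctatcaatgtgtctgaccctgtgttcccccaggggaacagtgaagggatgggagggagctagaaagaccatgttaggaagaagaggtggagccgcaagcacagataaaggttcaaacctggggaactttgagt
Tpm3 promoter at its second listed start, chr3:90079271-90079520, + strand: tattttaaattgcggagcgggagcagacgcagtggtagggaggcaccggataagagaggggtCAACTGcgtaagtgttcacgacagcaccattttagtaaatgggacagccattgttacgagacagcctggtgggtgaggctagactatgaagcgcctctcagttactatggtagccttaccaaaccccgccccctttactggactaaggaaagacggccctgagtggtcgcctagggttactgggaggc

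In the Myh4 window there were 2 E-boxes and 1 match each of MEF2, CArG and MCAT, with no overlap between them. The fast heavy chain genes Myh1 and Myh2, which also fell, held fewer matches in windows not printed here. That of Myh1 had 1 MEF2 and 1 MCAT match and no E-box or CArG match. That of Myh2 had no match of the 4 motifs. The Myh7 window, that of the outer of its starts, held 1 E-box and 1 MCAT match, and the window of the inner start, not printed because it reaches into an exon of the other transcript, held 2 E-boxes and no MCAT match. Each of the Ckm and Tpm3 windows held 1 E-box and no match of the other motifs. RefSeq lists 2 starts each for Myh7 and Tpm3, and the counts per gene do not separate them. Of the 40 genes, 32 had an entry, with 40 start regions in all, and those of Actn3, Tnnt3, Tnni2, Neb, Atp2a2, Myoz1, Tcap and Myod1 were not used here. An E-box occurred in 34 of the 40 regions (85.0%), against 66.2% of all 32851 start regions of the same length. MCAT occurred in 11 (27.5%, against 12.6%), CArG in 5 (12.5%, against 1.47%) and MEF2 in 4 (10%, against 2.92%). Some regions of the same gene overlap, among them the 2 of Ldb3 that each count a CArG match, so the regions are not independent. By gene, an E-box occurred in 28 of the 32 genes, MCAT in 11, CArG in 4 and MEF2 in 4. All these counts are matches of letters, given as a description.

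The thick filament genes all fell in both routes, 10 of 10. Beside the counts by role here and below, 34.0% of all genes tested fell and 29.2% rose in oral mice. In intraperitoneal mice 30.9% fell and 30.8% rose. Myh1 (ID 17879, chromosome 11, 67200102 to 67224577) encodes the myosin of type 2X fibres and was the most abundant heavy chain gene per kilobase. It had 311, 498, 340.1 and 591 CPM in oral IL-23 libraries, against 1164, 1715, 1280.1 and 909 CPM in oral vehicle libraries. There were 377, 426, 517 and 435 CPM in intraperitoneal IL-23 libraries, against 1041, 792, 649 and 801 CPM in intraperitoneal vehicle libraries. In both routes the highest IL-23 library stayed below the lowest vehicle library. The change on the log2 scale was -1.54 ± 0.21 (SE, adjusted p = 9.91e-06) in oral mice and -0.90 ± 0.21 (SE, adjusted p = 0.00137) in intraperitoneal mice.

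Myh2 (ID 17882, chromosome 11, 67171027 to 67197517) encodes the myosin of oxidative type 2A fibres and had the largest mean change of the 40 genes. Its levels were 44.2, 40.1, 45.4 and 65.1 CPM in oral IL-23 libraries, against 237, 241, 235 and 185 CPM in oral vehicle libraries. The intraperitoneal values were 34.5, 45.2, 41.6 and 39.1 CPM in intraperitoneal IL-23 libraries, against 172, 172, 105 and 132 CPM in intraperitoneal vehicle libraries. Again no IL-23 library reached a vehicle library of its route. The log2 fold change was -2.20 ± 0.17 (SE, adjusted p = 2.39e-08) in oral mice and -1.85 ± 0.17 (SE, adjusted p = 1.74e-07) in intraperitoneal mice, falls of 4.598-fold and 3.61-fold.

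Myh4 (ID 17884, chromosome 11, 67237812 to 67260447), the myosin of the fastest, type 2B fibres, was more variable between libraries. It stood at 76.4, 133, 124 and 235 CPM in oral IL-23 libraries, against 345, 483, 432 and 251 CPM in oral vehicle libraries. With intraperitoneal dosing it stood at 94.9, 129, 121 and 118 CPM in intraperitoneal IL-23 libraries, against 223, 145, 278 and 213 CPM in intraperitoneal vehicle libraries. The groups did not overlap, although oral IL-23 library 68 and oral vehicle library 51 lay close together. On the log2 scale Myh4 changed by -1.41 ± 0.27 (SE, adjusted p = 0.000256) in oral mice and -0.89 ± 0.27 (SE, adjusted p = 0.00876) in intraperitoneal mice. Reads of these genes may be shared: of the distinct 50-base stretches in GENCODE transcripts of Myh1, Myh2 and Myh4, 25.4%, 22.9% and 18.9% also occurred in transcripts of another gene, so their single-gene values are uncertain.

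Slow myosin genes were scarce and fell as well. Myh7 (ID 140781, chromosome 14, 54970684 to 54994626), the myosin of slow type 1 fibres and of heart ventricle, had 2.79, 7.005, 6.60 and 7.98 CPM in oral IL-23 libraries, against 19.1, 28.6, 17.7 and 20.8 CPM in oral vehicle libraries. Its intraperitoneal levels were 5.51, 6.34, 2.85 and 4.48 CPM in intraperitoneal IL-23 libraries, against 20.01, 15.3, 11.6 and 19.7 CPM in intraperitoneal vehicle libraries. The log2 fold change was -1.79 ± 0.27 (SE, adjusted p = 2.78e-05) in oral mice and -1.80 ± 0.29 (SE, adjusted p = 4.71e-05) in intraperitoneal mice, and the difference between the routes was 0.01 ± 0.37. No IL-23 library reached a vehicle library of its route. Of its 50-base stretches 15.6% also occurred in transcripts of another gene, mostly Myh6, which had few counts here. Myl2 (ID 17906, chromosome 5, 122092724 to 122113473), the slow regulatory light chain, showed 6.24, 9.30, 12.7 and 13.1 CPM in oral IL-23 libraries, against 37.8, 45.3, 33.5 and 37.9 CPM in oral vehicle libraries. In the other route it showed 8.43, 7.73, 4.28 and 6.30 CPM in intraperitoneal IL-23 libraries, against 34.6, 26.4, 15.7 and 24.6 CPM in intraperitoneal vehicle libraries. The groups were again apart, and the log2 fold change was -1.88 ± 0.24 (SE, adjusted p = 4.86e-06) in oral mice and -1.93 ± 0.26 (SE, adjusted p = 8.42e-06) in intraperitoneal mice, the second largest mean change of the 40 genes.

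The remaining light chain and myosin-binding genes fell as well. Mylpf, the fast regulatory light chain, averaged 207 ± 51.6 CPM in oral IL-23 and 575 ± 88.3 CPM in oral vehicle libraries (SD, n = 4 each). Its log2 fold change was -1.47 ± 0.17 in oral and -0.98 ± 0.17 in intraperitoneal mice. The fast essential light chain Myl1 had -1.41 ± 0.17 and -1.02 ± 0.17, and the slow essential light chain Myl3 had -1.39 ± 0.25 and -1.44 ± 0.26. The slow myosin-binding protein gene Mybpc1 had -1.57 ± 0.18 and -1.197 ± 0.18. Its fast counterpart Mybpc2, at a mean of 13.6 CPM in oral vehicle libraries, had -1.04 ± 0.29 (SE, adjusted p = 0.00468) in oral mice, where the groups overlapped, and -0.93 ± 0.31 (SE, adjusted p = 0.0146) in intraperitoneal mice, where they did not.

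Thin filament genes did not all move one way. Of 11, 9 fell and 1 rose in each route, and Tpm2 did not pass in either. Acta1 averaged 408 ± 104 CPM in oral IL-23 and 1056 ± 269 CPM in oral vehicle libraries, and 363 ± 19.9 and 663 ± 80.6 CPM in intraperitoneal IL-23 and vehicle libraries (SD, n = 4 each). Its log2 fold change was -1.37 ± 0.18 and -0.87 ± 0.17. Nebulin, the ruler of the thin filament encoded by Neb, had the largest mean change of this role, with -2.02 ± 0.19 and -1.48 ± 0.18.

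Troponin T anchors the troponin complex to tropomyosin. Tnnt3 (ID 21957, chromosome 7, 142498771 to 142516213), the fast form, had 182, 289, 229 and 334 CPM in oral IL-23 libraries, against 577, 671, 610.2 and 384 CPM in oral vehicle libraries. It had 215, 174, 238 and 191 CPM in intraperitoneal IL-23 libraries, against 439, 365, 347 and 359.7 CPM in intraperitoneal vehicle libraries. Each IL-23 library lay below all vehicle libraries of its route, and the log2 fold change was -1.11 ± 0.18 (SE, adjusted p = 4.43e-05) in oral mice and -0.89 ± 0.18 (SE, adjusted p = 0.000428) in intraperitoneal mice. Tnnt1 (ID 21955, chromosome 7, 4504569 to 4515975), the slow form, had 51.6, 72.0, 76.1 and 86.9 CPM in oral IL-23 libraries, against 110.1, 158, 125 and 107 CPM in oral vehicle libraries. The intraperitoneal libraries held 68.8, 44.3, 51.2 and 49.7 CPM in intraperitoneal IL-23 libraries, against 108, 85.0, 74.3 and 96.6 CPM in intraperitoneal vehicle libraries. The groups did not overlap here either. With -0.80 ± 0.17 (SE, adjusted p = 0.000524) in oral mice and -0.77 ± 0.17 (SE, adjusted p = 0.000878) in intraperitoneal mice, Tnnt1 had the smallest fall of the 3 slow contrast genes.

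Troponin I is the inhibitory subunit of the complex. The slow form Tnni1 (ID 21952, chromosome 1, 135783033 to 135810989), singled out after its values were seen, had 8.05, 12.9, 13.6 and 14.0 CPM in oral IL-23 libraries, against 49.5, 50.7, 30.5 and 49.5 CPM in oral vehicle libraries. With intraperitoneal dosing there were 14.4, 10.8, 8.56 and 9.45 CPM in intraperitoneal IL-23 libraries, against 41.1, 32.2, 26.4 and 31.3 CPM in intraperitoneal vehicle libraries. Oral vehicle library 33 was the lowest of its group and still above every oral IL-23 library. The log2 fold change of Tnni1 was -1.87 ± 0.20 (SE, adjusted p = 8.32e-07) in oral mice and -1.61 ± 0.21 (SE, adjusted p = 6.24e-06) in intraperitoneal mice. The fast form Tnni2 had -1.002 ± 0.17 and -0.89 ± 0.17. For the calcium-binding subunit, the slow gene Tnnc1 had -0.88 ± 0.23 and -0.92 ± 0.24, with overlapping groups in intraperitoneal mice, and the fast gene Tnnc2 had -0.93 ± 0.16 and -0.74 ± 0.16.

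Tropomyosin genes, which are shared with smooth muscle and non-muscle cells, differed from each other. Tpm1 fell, with a log2 fold change of -1.196 ± 0.13 in oral and -0.88 ± 0.13 in intraperitoneal mice. Tpm2 had 374, 399, 416 and 465 CPM in oral IL-23 libraries, against 484, 597, 529 and 395 CPM in oral vehicle libraries. There were 395, 288, 348 and 319 CPM in intraperitoneal IL-23 libraries, against 429, 347, 299 and 319.8 CPM in intraperitoneal vehicle libraries. The groups overlapped in both routes, and the log2 fold change of -0.28 ± 0.13 (SE, adjusted p = 0.0805) in oral mice and -0.05 ± 0.13 (SE, adjusted p = 0.771) in intraperitoneal mice did not pass. In oral mice it passed without oral vehicle library 51 (-0.35), with upper-quartile factors (-0.35) and with plain library size (-0.47). In intraperitoneal mice it was 0.039 without IL-23 library 28 and 0.068 without vehicle library 49.

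Tpm3 (ID 59069, chromosome 3, 90072651 to 90100902), which encodes the slow muscle tropomyosin and cytoskeletal forms from the same gene, rose. It had 109, 99.5, 133 and 114 CPM in oral IL-23 libraries, against 64.2, 75.4, 74.6 and 58.7 CPM in oral vehicle libraries. It had 118, 126, 112 and 105 CPM in intraperitoneal IL-23 libraries, against 78.7, 67.7, 62.8 and 61.6 CPM in intraperitoneal vehicle libraries. All IL-23 libraries lay above the vehicle libraries of their route, and the log2 fold change was 0.74 ± 0.11 (SE, adjusted p = 1.44e-05) in oral mice and 0.77 ± 0.11 (SE, adjusted p = 1.27e-05) in intraperitoneal mice. Of its 50-base stretches 23.2% also occurred in transcripts of Tpm3-rs7, for which no count row was used, so its value is uncertain.

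**Figure D2:**
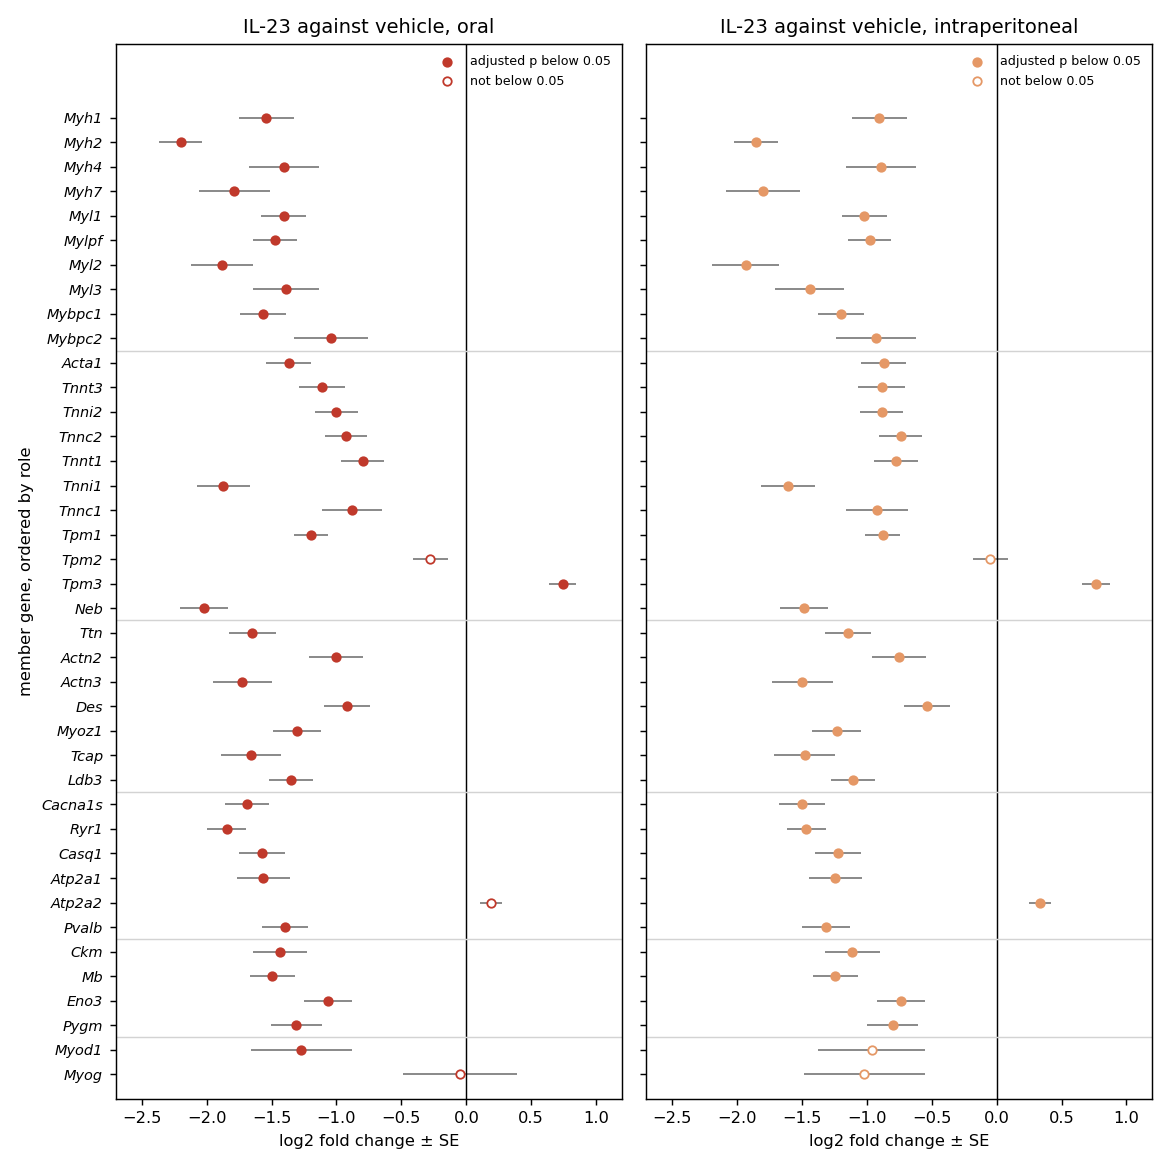
Log2 fold change with its SE (horizontal axis) of each of the 40 genes for IL-23 against vehicle, oral on the left and intraperitoneal on the right, ordered by role; filled points had an adjusted p below 0.05. Tpm3 lies to the right of 0 in both panels, at 0.74 and 0.77, Atp2a2 at 0.19 and 0.34, and the other 38 genes lie to the left.

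The 7 genes of the Z-disc, the titin filament and desmin fell in both routes, with medians of -1.35 and -1.15. Titin, the molecular spring encoded by Ttn, averaged 188 ± 47.1 CPM in oral IL-23 and 589 ± 152 CPM in oral vehicle libraries (SD, n = 4 each), and had a log2 fold change of -1.65 ± 0.18 in oral and -1.15 ± 0.18 in intraperitoneal mice. The alpha-actinin of fast fibres, Actn3, had -1.72 ± 0.23 and -1.497 ± 0.24, and Actn2, found in all fibres, -1.003 ± 0.21 and -0.75 ± 0.21. The titin cap gene Tcap had -1.66 ± 0.23 and -1.48 ± 0.23, the calsarcin gene Myoz1 -1.30 ± 0.18 and -1.23 ± 0.19, and the PDZ-LIM gene Ldb3 -1.35 ± 0.17 and -1.11 ± 0.17. Desmin, an intermediate filament also found in smooth muscle, fell least in this role, with -0.92 ± 0.18 (SE, adjusted p = 0.00023) and -0.54 ± 0.18 (SE, adjusted p = 0.0141). Its groups overlapped in both routes, and its intraperitoneal call was lost without intraperitoneal vehicle library 49 (-0.44, adjusted p = 0.053).

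Of the 6 calcium-handling genes, 5 fell in both routes. The ryanodine receptor Ryr1, the release channel of the sarcoplasmic reticulum, had a log2 fold change of -1.84 ± 0.15 in oral and -1.46 ± 0.15 in intraperitoneal mice, and its voltage sensor partner Cacna1s -1.69 ± 0.17 and -1.4997 ± 0.18. The calcium store protein Casq1 had -1.57 ± 0.18 and -1.22 ± 0.18, and the calcium buffer of fast fibres, Pvalb, -1.40 ± 0.18 and -1.31 ± 0.18. The fast fibre calcium pump Atp2a1 averaged 375 ± 136 CPM in oral IL-23 and 1111 ± 255 CPM in oral vehicle libraries (SD, n = 4 each), with -1.56 ± 0.20 and -1.24 ± 0.20.

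The remaining gene was Atp2a2 (ID 11938, chromosome 5, 122453513 to 122502225), the pump of slow fibres, heart and most other cell types. It had 515, 629, 609 and 622 CPM in oral IL-23 libraries, against 481, 576, 533 and 496 CPM in oral vehicle libraries. It had 693, 623, 579 and 573 CPM in intraperitoneal IL-23 libraries, against 514, 487, 476 and 479 CPM in intraperitoneal vehicle libraries. The oral groups overlapped and the intraperitoneal groups did not. For Atp2a2 the log2 fold change was 0.19 ± 0.09 (SE, adjusted p = 0.0669) in oral mice and 0.34 ± 0.09 (SE, adjusted p = 0.00301) in intraperitoneal mice, so that it rose in intraperitoneal mice. The difference between the routes was -0.15 ± 0.12 (SE, adjusted p = 0.898). With plain library size the value was -0.0076 in oral mice and 0.12 in intraperitoneal mice (adjusted p = 0.221), so its direction depends on the scaling. It passed in oral mice with RLE factors (0.23), with DESeq2 (0.23), and with any 1 of oral IL-23 library 14, intraperitoneal IL-23 library 25 or 28 and oral vehicle library 27 left out.

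All 4 energy supply genes fell in both routes. Muscle creatine kinase, Ckm, which regenerates ATP beside the myofibrils, averaged 79.4 ± 28.7 CPM in oral IL-23 and 216 ± 49.6 CPM in oral vehicle libraries, and 67.6 ± 4.27 and 146 ± 19.8 CPM in intraperitoneal IL-23 and vehicle libraries (SD, n = 4 each). The log2 fold change was -1.44 ± 0.21 in oral and -1.11 ± 0.21 in intraperitoneal mice. The oxygen-binding gene Mb had -1.495 ± 0.17 and -1.24 ± 0.17, the muscle enolase gene Eno3 -1.06 ± 0.18 and -0.74 ± 0.19, and Pygm, the muscle glycogen phosphorylase, -1.31 ± 0.20 and -0.80 ± 0.20.

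The myogenic transcription factors were measured at low levels. Myod1, which commits cells to the muscle lineage, had 3.61, 2.29, 2.79 and 2.34 CPM in oral IL-23 libraries, against 7.40, 7.43, 4.67 and 6.998 CPM in oral vehicle libraries. It had 2.92, 2.08, 0.475 and 3.48 CPM in intraperitoneal IL-23 libraries, against 2.35, 5.28, 3.10 and 6.504 CPM in intraperitoneal vehicle libraries. The oral groups were apart and the intraperitoneal groups overlapped. Myod1 had a log2 fold change of -1.27 ± 0.39 (SE, adjusted p = 0.00875) in oral mice and -0.96 ± 0.41 (SE, adjusted p = 0.0518) in intraperitoneal mice, so that it fell in oral mice. Myog, which drives differentiation of myoblasts, had 5.58, 2.17, 1.78 and 2.76 CPM in oral IL-23 libraries, against 2.86, 4.63, 2.20 and 2.94 CPM in oral vehicle libraries. There were 1.14, 1.73, 1.19 and 2.98 CPM in intraperitoneal IL-23 libraries, against 2.16, 6.99, 3.57 and 1.80 CPM in intraperitoneal vehicle libraries. The groups overlapped in both routes, with a log2 fold change of -0.05 ± 0.44 (SE, adjusted p = 0.931) in oral mice and -1.02 ± 0.47 (SE, adjusted p = 0.0687) in intraperitoneal mice. In intraperitoneal mice Myod1 passed without IL-23 library 25 (-1.12) or 61 (-1.25) or vehicle library 49 (-1.18) or 59 (-1.09), and with upper-quartile factors (-1.06), plain library size (-1.18) or DESeq2 (-0.94). Without IL-23 library 31 it was -0.59 (adjusted p = 0.153), and without vehicle library 67 it was -0.68 (adjusted p = 0.183). Myog passed there without IL-23 library 61 (-1.35) or vehicle library 49 (-1.21) or 67 (-1.23), and with upper-quartile factors (-1.11) or plain library size (-1.22), and was -0.54 without vehicle library 50 (adjusted p = 0.298).

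Fast and slow genes were then set side by side to see whether the fall favoured a fibre type. The median log2 fold change of the 4 fast genes was -1.47 in oral and -0.90 in intraperitoneal mice, and that of the 3 slow genes -1.79 and -1.80. The ranges of the single genes overlapped: -2.20 to -1.11 for fast and -1.88 to -0.80 for slow genes in oral mice, and -1.85 to -0.89 and -1.93 to -0.77 in intraperitoneal mice. In each class 1 gene stood apart from the others, Myh2 among the fast genes with the larger fall and Tnnt1 among the slow genes with the smaller fall. Over the wider classes, all 14 fast genes fell in both routes, with medians of -1.41 and -0.997, and 7 of 9 slow genes fell in each, with medians of -1.39 and -1.197. The 2 other slow genes were Tpm3 and Atp2a2. Of all genes tested 34.0% fell in oral and 30.9% in intraperitoneal mice.

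The log2 ratio of the summed slow over the summed fast genes, each per kilobase of exon, was -2.77, -2.92, -2.43 and -2.90 in oral IL-23 libraries, against -3.16, -3.04, -3.19 and -2.69 in oral vehicle libraries. It was -2.58, -3.04, -3.32 and -3.02 in intraperitoneal IL-23 libraries, against -2.86, -2.90, -3.15 and -2.79 in intraperitoneal vehicle libraries. The groups overlapped in both routes, and the difference of the means was 0.26 in oral and -0.07 in intraperitoneal mice. Computed from means of log2 CPM, in which each gene counts equally, the slow minus fast difference also overlapped, and its means differed by 0.04 in oral and -0.38 in intraperitoneal mice. No p-value is given for a score over these genes.

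**Figure D3:**
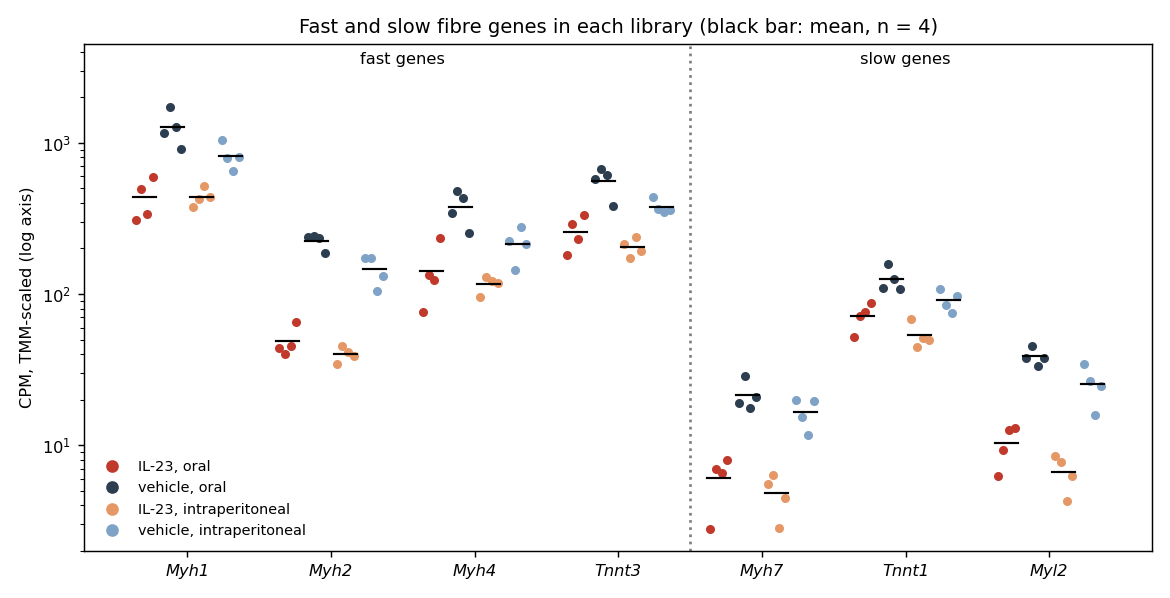
CPM with TMM scaling (vertical axis, log scale) of the 4 fast and 3 slow contrast genes, with 1 point per library, 4 libraries per group and a black bar at each mean. In each gene and route the IL-23 points lie below the vehicle points, and the closest pair is Myh4 in oral libraries, at 235 CPM with IL-23 and 251 CPM with vehicle.

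The makeup of the myosin heavy chain transcripts was described per library. Myh1 held 65.5 to 73.3% of the 4 heavy chain genes, per kilobase, in oral IL-23 and 65.4 to 69.7% in oral vehicle libraries, and 70.2 to 75.6% and 62.2 to 72.1% in intraperitoneal IL-23 and vehicle libraries. Myh4 held 18.6 to 27.5% and 19.6 to 23.3% in oral IL-23 and vehicle libraries. The share of Myh2 was 9.09, 5.25, 7.82 and 6.42% in oral IL-23 libraries, against 12.0, 8.71, 10.7 and 12.2% in oral vehicle libraries. In intraperitoneal mice it was 6.003, 6.64, 5.41 and 5.83% with IL-23, against 10.6, 13.8, 8.93 and 10.2% with vehicle. The Myh2 shares overlapped in oral mice, where IL-23 library 14 lay above vehicle library 27, and did not overlap in intraperitoneal mice. Myh7 held 0.476 to 0.941% in oral IL-23 and 0.668 to 1.13% in oral vehicle libraries, and 0.307 to 0.794% and 0.819 to 1.25% in intraperitoneal IL-23 and vehicle libraries. Its shares overlapped in oral mice and were lower with IL-23 without overlap in intraperitoneal mice.

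Slow over fast ratios of matched isoforms differed between subunits. The log2 ratio of Tnni1 to Tnni2 was -4.15, -4.15, -3.82 and -4.21 in oral IL-23 libraries, against -3.14, -3.22, -3.83 and -2.65 in oral vehicle libraries. The intraperitoneal values were -3.65, -3.60, -4.26 and -4.11 with IL-23, against -3.08, -3.23, -3.27 and -3.15 with vehicle. This ratio was lower with IL-23 without overlap in intraperitoneal mice, and in oral mice the ranges met at IL-23 library 26 and vehicle library 33. That of Tnnt1 to Tnnt3 overlapped in both routes, with -2.01 to -1.59 and -2.39 to -1.84 in oral IL-23 and vehicle libraries, and -2.22 to -1.64 and -2.22 to -1.90 in intraperitoneal ones. The ratio of Tnnc1 to Tnnc2 also overlapped, at -4.58 to -3.84 and -4.73 to -3.86 in oral IL-23 and vehicle libraries. Those of Myh7 to Myh4, Myl2 to Mylpf, Myl3 to Myl1 and Mybpc1 to Mybpc2 overlapped in both routes. Their means differed by -0.42, -0.45, -0.04 and -0.56 in oral mice, and by -0.96, -0.95, -0.41 and -0.23 in intraperitoneal mice. The means of Tnnt1 to Tnnt3 differed by 0.31 and 0.12, and those of Tnnc1 to Tnnc2 by 0.07 and -0.19. Set against each other, the slow genes Tnni1 and Tnnt1 had a log2 ratio of -2.68, -2.48, -2.49 and -2.63 in oral IL-23 libraries, against -1.15, -1.64, -2.04 and -1.12 in oral vehicle libraries. In intraperitoneal mice the ratio was -2.25, -2.03, -2.58 and -2.40 with IL-23, against -1.40, -1.40, -1.49 and -1.62 with vehicle. It was lower with IL-23 in both routes without overlap. The pump genes Atp2a2 and Atp2a1 had a log2 ratio of 0.19 to 1.197 and -1.28 to -0.67 in oral IL-23 and vehicle libraries, higher with IL-23 without overlap. Atp2a2, also the pump of most other cell types, averaged 594 CPM in oral IL-23 and 521 CPM in oral vehicle libraries. Atp2a1 averaged 375 and 1111 CPM there. These pairs were chosen with their values known, and the ratios carry no test.

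**Figure D4:**
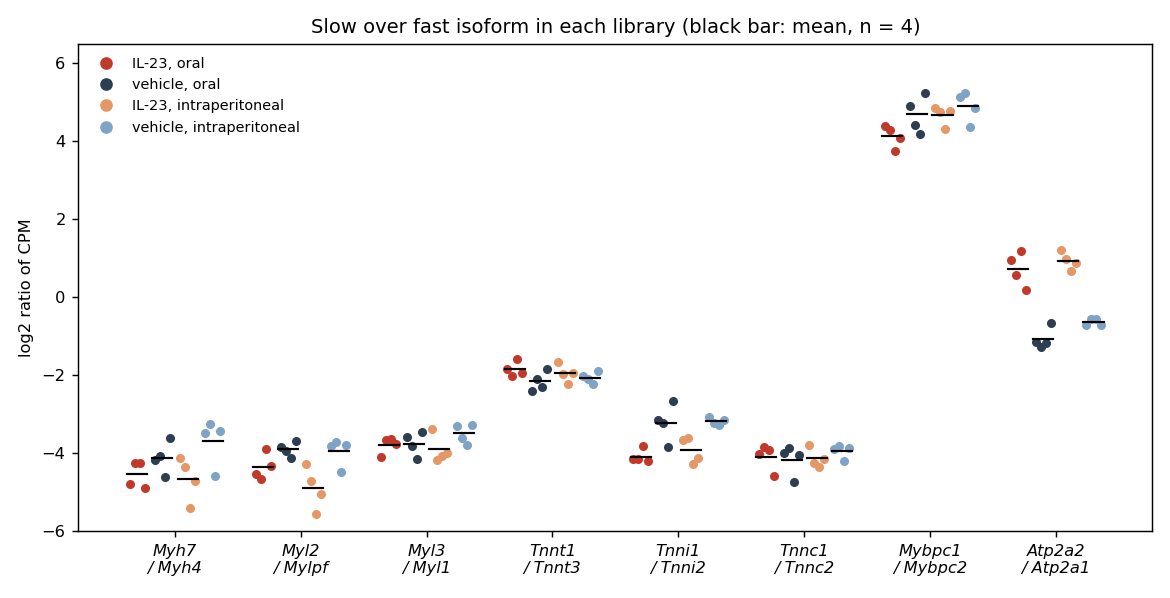
Log2 ratio of CPM (vertical axis) of the slow over the fast isoform for 8 pairs of genes, with 1 point per library, 4 libraries per group and a black bar at each mean. That of Atp2a2 to Atp2a1 lies higher in IL-23 libraries without overlap and that of Tnni1 to Tnni2 lower, with a meeting of the oral ranges near -3.83. Those of the other pairs overlap in both routes.

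Oral against intraperitoneal dosing was compared in the vehicle libraries, without IL-23. The contractile genes had 39 of 40 positive log2 fold changes and a median of 0.56, where 53.5% of all genes were positive and the median was 0.01. No gene passed after adjustment, either among the 40 or among all 14671 genes tested (0%), and the lowest adjusted p of the 40 genes was 0.598. At an unadjusted p under 0.05 there were 32 of the 40 genes and 7.41% of all genes (1087 genes), and DESeq2 called 1 of all genes and 0 of the 40. The groups did not overlap for 9 of the 40 genes, all higher in oral libraries, against 2.88% of all genes tested that were higher and 2.47% that were lower without overlap.

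The widest differences by value were those of Myh4, at 345, 483, 432 and 251 CPM in oral and 223, 145, 278 and 213 CPM in intraperitoneal vehicle libraries, with a log2 fold change of 0.81 ± 0.27 (SE, adjusted p = 0.598), and of Mybpc2, with 0.74 ± 0.28. The groups of Myh4 overlapped. Myh2, whose levels did not overlap, had 0.63 ± 0.16 (unadjusted p = 0.000938, adjusted p = 0.598). The median was 0.63 for the 4 fast and 0.46 for the 3 slow contrast genes. Tpm3 and Atp2a2 had 0.01 ± 0.11 and 0.09 ± 0.09. Oral vehicle library 27 was the highest of its group in 38 of the 40 genes and library 51 the lowest in 30, and without library 27 the genes at an unadjusted p under 0.05 numbered 23 of 40 and 793 of all genes (5.35%). Without intraperitoneal library 59 they numbered 28 of 40 and 602 of all genes (4.07%). In the intraperitoneal vehicle group library 49 was the highest in 33 of the 40 genes. The count without overlap was 30 without oral library 51, against 7.67% of all genes that were then higher in oral libraries. It was 29 without intraperitoneal library 49, against 5.83% of all genes. With any other vehicle library left out it was 9 to 12, against 3.78 to 5.83% of all genes. Smooth muscle genes had a median of 0.35 in the same comparison, with all 10 above 0 and 3 of 10 at an unadjusted p under 0.05, and leukocyte genes had a median of -0.30. Fibroblast and endothelial genes had medians of 0.06 and 0.04. Adipocyte, cartilage, Schwann cell and keratinocyte genes had medians of 0.24, -0.09, 0.05 and -0.05, and the part of these cell types was not tested.

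**Figure D5:**
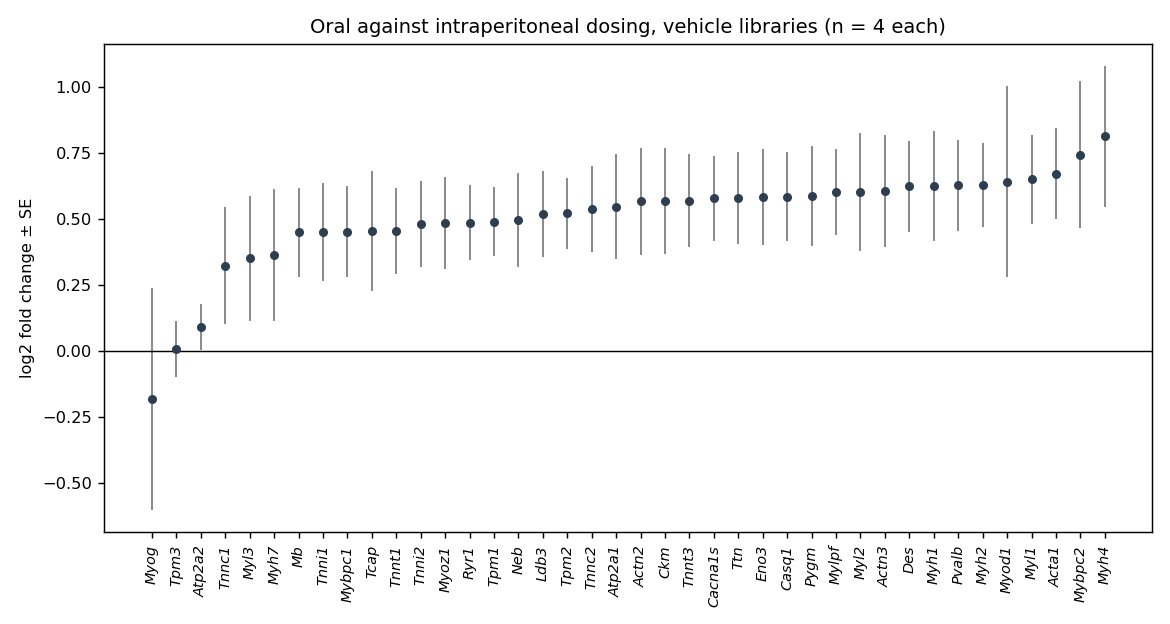
Log2 fold change with its SE (vertical axis) of oral against intraperitoneal dosing in vehicle libraries, n = 4 each, for the 40 genes in order of value. All genes but Myog lie above 0, from 0.01 for Tpm3 to 0.81 for Myh4, and none passed an adjusted p of 0.05.

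The IL-23 effect was also compared between the routes. Its log2 fold change was lower in oral than in intraperitoneal mice for 35 of the 40 genes, of which 33 were below 0 and Tpm3 and Atp2a2 above 0 in both routes, against 56.2% of all genes tested with a lower value in oral mice, and the median difference was -0.25. No difference passed after adjustment among the 40 or all genes (0%), with a lowest adjusted p of 0.875 among the 40. At an unadjusted p under 0.05 there were 2 of the 40, Myh1 with -0.64 ± 0.29 and Mylpf with -0.50 ± 0.23, and 796 of all genes (5.43%), and DESeq2 called 1 of all genes and 0 of the 40. This comparison and that of the vehicle groups share the 8 vehicle libraries. The median difference was -0.43 for the fast and 0.01 for the slow contrast genes. With each library left out, the fast median ran from -0.67 without oral IL-23 library 68 to -0.31 without oral IL-23 library 14. The slow median ran from -0.13 without library 68 to 0.21 without library 14. The summed level of the 40 genes had medians of 5435 and 4919.8 CPM in oral and intraperitoneal IL-23 libraries, and of 12532 and 8326 CPM in oral and intraperitoneal vehicle libraries.

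Other muscle genes, from lists outside the 40, fell too. Of all genes tested 34.0% fell in oral and 30.9% in intraperitoneal mice. Of 27 tested further sarcomere genes 26 fell in each route, with medians of -1.37 in oral and -1.10 in intraperitoneal mice. Xirp2, an actin-binding protein of the myotendinous junction, averaged 54.4 ± 12.1 CPM in oral IL-23 and 234 ± 55.0 CPM in oral vehicle libraries (SD, n = 4 each), or -2.10 ± 0.19 on the log2 scale. The ubiquitin ligase gene Trim55 had -1.91 ± 0.29 in oral mice, and the leiomodin gene Lmod2, which lengthens actin filaments, -1.81 ± 0.18 in intraperitoneal mice. Of 15 tested genes of calcium release and reuptake 12 fell in oral and 11 in intraperitoneal mice. Triadin, the anchor of the ryanodine receptor encoded by Trdn, had -2.30 ± 0.20 and -1.69 ± 0.20, and the calcium channel subunit Cacna2d1 -1.77 ± 0.19 and -1.41 ± 0.19. Of 18 tested energy supply genes 16 fell in each route, among them Gpd1, of the glycerol phosphate shuttle, with -1.69 ± 0.20 and -1.58 ± 0.21, and the insulin-responsive glucose transporter Slc2a4, with -1.501 ± 0.17 in oral mice. Adipocytes express Gpd1 and Slc2a4 as well.

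Of 14 genes of the dystrophin complex and the fibre membrane 13 fell in each route. Among all genes tested 34.0% fell in oral and 30.9% in intraperitoneal mice. The laminin gene Lama2 had a log2 fold change of -2.39 ± 0.25 in oral and -1.54 ± 0.24 in intraperitoneal mice, and the chloride channel Clcn1 -2.13 ± 0.35 in oral mice. In the satellite cell and regeneration list 15 of 16 tested genes fell in oral and 14 in intraperitoneal mice, and none rose. Pax7 and Myf5 of that list had group means of at most 0.325 and 0.244 CPM. Both were removed by the filter on low counts, so these calls do not cover them. The embryonic myosin heavy chain Myh3 averaged 39.1 ± 11.4 CPM in oral IL-23 and 172 ± 17.9 CPM in oral vehicle libraries, and 30.4 ± 2.46 and 125 ± 44.7 CPM in intraperitoneal IL-23 and vehicle libraries (SD, n = 4 each), with log2 fold changes of -2.12 ± 0.21 and -2.05 ± 0.21. The receptor kinase of the neuromuscular junction, Musk, had -2.36 ± 0.38 and -1.70 ± 0.37. Pax3, a factor of muscle precursors and of melanocytes, had -2.44 ± 0.57 in oral mice at a mean of 1.48 CPM in oral vehicle libraries. Of 12 fibre type regulators 11 fell and 1 rose in each route. Six4, a homeobox factor, had -1.84 ± 0.42 and -2.23 ± 0.47, and the TEAD cofactor Vgll2 -1.91 ± 0.29 and -1.98 ± 0.31. The gene that rose was Ppard, a lipid-sensing nuclear receptor also active in keratinocytes, with 1.31 ± 0.13 and 1.17 ± 0.13, named after its values were seen.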

How the data were processed

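Total RNA was sequenced from 16 mouse libraries, made with a stranded total RNA kit per the labels' protocols. Reads were aligned with STAR and counted per gene with featureCounts (Subread 1.5.0) on GRCm38, per the submitters' processing notes; neither the strand setting nor the treatment of multi-mapping reads is stated. The deposited table holds raw counts for each gene.

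Genes were filtered with filterByExpr (minimum count 10), which left 14671 of 26357. Counts were fitted with edgeR 4.0.16 (R 4.3.3) as 4 groups with TMM factors and 12 residual degrees of freedom, and tested with the quasi-likelihood F test and Benjamini-Hochberg adjustment at 0.05. The SE of a log2 fold change was derived from it and the F statistic. Alternatives used other scalings and filters, DESeq2 1.42.0, limma-voom (limma 3.58.1), separate fits per route and each library left out. The test was run on simulated counts of 14464 genes, of which 100 changed 2-fold and 100 changed 1.5-fold in oral IL-23 libraries. It recovered 91% and 62% of them, with 9 false calls. Far fewer genes changed there than were called in these data, so the scaling under broad change was not checked. Gene coordinates and start regions are those of RefSeq, and exon lengths those of GENCODE M21. Totals of 6381990 to 14432930 counts set the precision, and low genes such as Myod1 and Myog have few counts.

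The 40 genes, the marker lists and the tests were chosen with earlier results of these data known. Values in every library are given for the 7 fast and slow contrast genes, Myod1, Myog, and the 2 genes with the largest and the 2 with the smallest mean change over both routes (Myh2, Myl2, Tpm2 and Atp2a2); Tpm3 and Tnni1 were added after their values were seen. Genes named from other muscle lists are among the 2 called ones with the largest change in a route, unless the text says otherwise.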

Additional observations from a re-analysis of the deposited data

Results flagged for a closer look

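Single libraries stood apart from the other 3 of their group in 10 of 164 combinations examined by Dixon's test, which were the 40 genes and their summed level in each of the 4 groups. Chance alone gives about 1 in 20 groups. The genes were Myh2, Mylpf, Tnni1, Tpm1, Actn3, Ldb3, Cacna1s and Myod1.

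In oral vehicle library 33, Tnni1, slow troponin I, stood at 30.5 CPM, against 49.5 to 50.7 CPM in the others, and Myod1 at 4.67 CPM, against 6.998 to 7.43 CPM. Myh2 in oral vehicle library 51 had 185 CPM, against 235 to 241 CPM. In intraperitoneal vehicle library 49, Mylpf, the fast regulatory light chain, had 483 CPM, against 338 to 350.2 CPM, and Tpm1 had 736 CPM, against 547 to 572 CPM. Among IL-23 libraries, the voltage sensor gene Cacna1s had 22.3 CPM in oral library 68, against 14.0 to 15.2 CPM, and 10.8 CPM in intraperitoneal library 61, against 13.3 to 13.6 CPM. Ldb3 in intraperitoneal library 61 had 71.5 CPM, against 46.0 to 48.0 CPM. Actn3 in intraperitoneal library 31 had 13.3 CPM, against 8.998 to 9.45 CPM, and Mylpf in intraperitoneal library 25 had 162 CPM, against 200.1 to 206 CPM. The causes were not tested. In the route concerned, IL-23 and vehicle libraries did not overlap for any of these genes.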

How the results depend on the processing

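The alternatives were 8 other fits and 16 fits that each left out a library. Of the 40 genes, 37 to 38 passed in oral mice and 37 to 39 in intraperitoneal mice over all of them, and every oral call held. In intraperitoneal mice Atp2a2 lost its call with plain library size (0.12) and desmin its call without vehicle library 49 (-0.44). The sign turned for Atp2a2 in oral mice with plain library size (-0.0076), for Myog in oral mice without IL-23 library 24 (0.087) or 26 (0.14) or vehicle library 27 (0.18), and for Tpm2 in intraperitoneal mice without IL-23 library 28 (0.039) or vehicle library 49 (0.068). None of these 6 values passed. With each library left out, Myog spanned -0.46 to 0.18 in oral mice and Tpm2 -0.13 to 0.068 in intraperitoneal mice. The median of the 4 fast genes in intraperitoneal mice was -1.11 with plain library size. That scaling put the median of all genes at -0.26 in oral and -0.23 in intraperitoneal mice, and the share of calls that were higher at 31.0% and 31.5%, against 46.2% and 49.9% with TMM. DESeq2 called 1 gene outside the 40 in the difference between routes and 1 in the oral against intraperitoneal comparison of vehicle libraries, where edgeR called 0. Genes called over the whole table with each library left out numbered 8457 to 9768 in oral and 8310 to 9092 in intraperitoneal mice. The causes were not tested. No paired analysis was possible because no replicate number is shared between groups. Low counts limit Myod1 and Myog, whose SEs of 0.39 to 0.47 exceed those of the abundant genes, and reads shared between near-identical genes limit the single heavy chain values.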

Other observations

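The atrophy list, 9 genes of protein breakdown and growth control, was measured beside the contractile genes. In oral mice 5 fell and 2 rose, and in intraperitoneal mice 6 fell and none rose. Of all genes tested 63.3% passed in oral mice, 34.0% lower and 29.2% higher. In intraperitoneal mice 61.7% of all genes passed, 30.9% lower and 30.8% higher. The genes with the largest changes were Mstn, the growth inhibitor myostatin, with log2 fold changes of -1.96 ± 0.44 in oral and -1.87 ± 0.43 in intraperitoneal mice, and the ubiquitin ligase gene Fbxo32, with -1.78 ± 0.20 in oral mice. Klf15, a glucocorticoid-responsive factor, had -1.84 ± 0.22 in intraperitoneal mice. The 2 that rose in oral mice were the cell cycle inhibitor gene Cdkn1a, with 0.46 ± 0.15, and the stress gene Gadd45a, with 0.60 ± 0.22. They were named after their values were seen, and both are active in many cell types.

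Of the 8 heart muscle genes 2 were tested, and 1 rose in each route, where 29.2% and 30.8% of all genes tested rose. Nppb, the gene of B-type natriuretic peptide, averaged 19.99 ± 13.2 CPM in oral IL-23 and 0.91 ± 0.731 CPM in oral vehicle libraries, and 7.15 ± 2.08 and 0.145 ± 0.131 CPM in intraperitoneal IL-23 and vehicle libraries (SD, n = 4 each). Its log2 fold changes were 4.40 ± 0.57 and 5.43 ± 0.77. In the smooth muscle list the largest falls were those of Synpo2, an actin-binding protein, with -2.14 ± 0.20 and -1.43 ± 0.19, Myh11, the smooth muscle myosin, with -1.47 ± 0.16 in oral mice, and Lmod1, with -1.505 ± 0.29 in intraperitoneal mice. Whether Synpo2 here came from smooth or skeletal muscle was not tested.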
